A study of Mus musculus with 8 samples.

Results

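The 2 epithelial layers of the mouse iris, dilator muscle and iris pigment epithelium (iris PE), were compared between 3 libraries of irises with continuously constricted pupils and 3 libraries of untreated irises. Nuclei were taken as those that the authors labelled dilator muscle or IPE, and these made up 13699 of the 34357 nuclei in the series, which holds 8 libraries of single nucleus RNA-seq. The other 2 libraries came from irises dilated with phenylephrine and cyclopentolate in the dark. They stayed in the fits to help estimate the spread between libraries, and also entered the filter on low counts and the normalization. With the 6 constricted and untreated libraries alone, 14448 genes were tested in dilator muscle and 13263 in iris PE. With all 8 libraries these numbers were 15395 and 14128. All irises came from wild type female albino mice of 6 to 8 weeks, and 5 or 6 irises were pooled per library. The constricted irises received hourly eye drops of 5% pilocarpine, a muscarinic agonist, for 6.5 hours of constriction, in mice kept in the light. The untreated irises received no drops, so that drug, drops and lighting cannot be told apart. The dissected tissue included a variable part of the ciliary body.

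Both layers lie back to back behind the iris stroma and are commonly held to derive from the neuroepithelium of the optic cup. The paper's lineage tracing labelled most cells of both with *Wnt1-Cre2*, and it proposes a model in which neural crest cells supply most of their progenitors. Cells of the anterior layer have a muscle-like process and pull the pupil open when the sympathetic transmitter acts on their adrenergic receptors. The posterior layer holds the screening pigment, which albino animals lack. Pilocarpine closes the pupil by contracting the sphincter, a separate muscle at the pupil margin. Both epithelial layers are then stretched over a wider area. The paper presumes that untreated pupils are rather small already and that the drug narrows them only modestly further. The added stretch against untreated irises may therefore be small, and it was not measured here.

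Dilator muscle contributed 403, 2080 and 1874 nuclei in untreated replicates 1, 2 and 3 and 1613, 427 and 1336 nuclei in the constricted replicates. Iris PE contributed 342, 1663 and 1714 nuclei and 1067, 259 and 921 nuclei. The unique molecular identifiers (UMIs) summed over a layer ranged from 1604121 to 7105128 per library in dilator muscle and from 1196394 to 5628032 in iris PE. Dilator nuclei were 29.5% ± 2.71 of all nuclei in untreated libraries and 36.8% ± 2.81 in constricted libraries (SD, n = 3 each). The 3 constricted shares lay above the 3 untreated ones, with p = 0.1 in a two-sided exact permutation test, the smallest that 3 libraries against 3 can give. The share of iris PE was 25.2% ± 1.79 against 24.1% ± 3.30 (p = 0.7, exact permutation test).

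The labels were checked against marker genes. The summed level of 9 dilator markers was 7567 to 8566 UMIs per 1000000 UMIs of the sum (CPM) in dilator nuclei of the 6 libraries and 775 to 856 CPM in iris PE nuclei. The summed level of 7 iris PE markers was 9244 to 10528 CPM in iris PE nuclei and 4024 to 4915 CPM in dilator nuclei. These 7 are not all particular to iris PE. The paper reports the OTX proteins and PAX6 in dilator and sphincter muscle too, and uses *Rbfox3* as a marker of sphincter cells. The level in dilator nuclei is therefore no measure of wrong labels or of material from iris PE. Some nuclei carry a 10x barcode that also occurs in another library. The library untreated replicate 1 shared 63 barcodes with dilated replicate 1, which is 4.26% of its nuclei, and 14 with constricted replicate 1. Other pairs shared at most 18. Leaving out every nucleus with a shared barcode removed 34 untreated and 30 constricted dilator nuclei and 43 untreated and 25 constricted iris PE nuclei, and results without them are given where they differ. By R2 of log levels, untreated replicate 1 stood further from the other untreated libraries (0.970 and 0.971 in dilator muscle, 0.959 and 0.960 in iris PE) than those did from each other (0.995 and 0.994). Pairs of constricted libraries had 0.955 to 0.965 in dilator muscle and 0.950 to 0.958 in iris PE. Between the conditions, R2 was 0.952 to 0.979 in dilator muscle and 0.939 to 0.978 in iris PE. These values reached both below and above those among constricted libraries, so R2 did not set the constricted libraries apart as a group. The paper describes the transcriptomes of constricted and untreated irises as almost the same in every cell type. The summed level of 8 endothelial markers in dilator nuclei was 95.4 CPM in untreated replicate 1 against 27.7 and 39.4 CPM in the other untreated libraries. Without untreated replicate 1 there was 1 call in dilator muscle, 2 in iris PE and 12 in the difference between the layers.

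*Serpina3n* was the 1 gene called in both layers, where it was higher with constriction, and the 1 gene called in either. It encodes a secreted serine protease inhibitor of the antitrypsin family that is known as an acute-phase protein and as a marker of reactive glia. The fitted increase was 9.56-fold in dilator muscle and 27.0-fold in iris PE. A gene was called at an adjusted p under 0.05 and an absolute log2 fold change above 0.6 in edgeR's quasi-likelihood test on UMIs summed per library. That gave 1 of 15395 genes tested in dilator muscle (0.0065%) and 1 of 14128 in iris PE (0.00708%). With both layers summed in each library, *Serpina3n* was the 1 gene called by that test, of 16708 (0.00599%). Its log2 fold change was 4.04 ± 0.27 (SE), with an adjusted p of 0.00016. The sum holds the same nuclei as the separate fits of the layers, so its call is not independent of those fits.

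*Serpina3n* lies on chromosome 12 at chr12:104406729-104414329 of mm10, on the plus strand, and its GENCODE model has 5 exons. Since it is the 1 gene called in both layers, its promoter is shown from RefSeq (GRCm38.p6, chr12:104406458-104406757, plus strand), with the 250 bases before the start in lower case and the 50 bases from the start on in capitals.
Serpina3n promoter: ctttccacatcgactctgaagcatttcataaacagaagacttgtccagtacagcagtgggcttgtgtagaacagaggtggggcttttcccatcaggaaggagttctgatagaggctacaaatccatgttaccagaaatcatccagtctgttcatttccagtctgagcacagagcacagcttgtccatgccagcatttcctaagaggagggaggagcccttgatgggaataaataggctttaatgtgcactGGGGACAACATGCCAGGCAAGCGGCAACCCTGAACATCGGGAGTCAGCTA
Sites that mediate responses to cAMP, to growth factors and activity, to the clock or to glucocorticoids were searched in these letters on both strands. No match was found to the cAMP response element TGACGTCA, which 1.79% of 32851 mouse promoters of this length hold, nor to its shorter form TGACG (20.8%), which lies within it. The AP-1 site TGANTCA (7.81%), the E-box CACGTG (7.15%), the EGR site GCGTGGGCG (0.612%) and the glucocorticoid response element (0.00913%) were not found either. The glucocorticoid element was searched in its full form only, which almost no promoter of this length holds, and sites of acute-phase factors were not searched. No match says only that these letters are absent from this window.

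In iris PE, *Serpina3n* stood at 3.34, 1.79 and 1.60 CPM in untreated replicates 1, 2 and 3 and at 59.8, 45.1 and 49.8 CPM in the constricted ones. All 3 constricted libraries were far above all untreated ones, with 22 UMIs in the untreated and 370 in the constricted nuclei. The log2 fold change was 4.76 ± 0.26 (SE), with a 95% confidence interval of 4.20 to 5.32 and an adjusted p of 1.76e-06. In dilator muscle it stood at 3.74, 1.55 and 0.791 CPM in untreated libraries and at 15.9, 11.5 and 15.9 CPM in constricted libraries. These groups did not overlap either, with 22 UMIs against 175. The log2 fold change was 3.26 ± 0.35, with an interval of 2.50 to 4.01 and an adjusted p of 0.0087. Without nuclei with a shared barcode it was 3.25 in dilator muscle and 4.75 in iris PE, called in both. Without untreated replicate 1 it was 3.58 and 4.91, also called in both. The call in iris PE was kept under all 16 alternative settings, with log2 fold changes of 3.55 to 4.91. The call in dilator muscle was lost with libraries thinned to the size of the smallest (2.59, adjusted p = 0.129) and without constricted replicate 2 (3.36, adjusted p = 0.056), untreated replicate 2 (3.30, adjusted p = 0.175) or untreated replicate 3 (2.82, adjusted p = 0.0829). The call was kept in the other 12 of 16 alternatives, and the log2 fold change ranged from 2.59 to 3.58.

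The level reached in iris PE of constricted irises was higher than in dilator muscle, at 51.5 ± 7.51 against 14.4 ± 2.51 CPM (SD, n = 3 each). The difference between the layers in the size of the increase was -1.45 ± 0.49 on the log2 scale (dilator muscle minus iris PE, 95% interval -2.47 to -0.44). It did not pass over all genes (unadjusted p = 0.00684, adjusted p = 0.554, edgeR with a term for each library). The 2 dilated libraries had the opposite order, at 48.6 and 54.3 CPM in dilator muscle and 42.6 and 31.2 CPM in iris PE. In both layers these dilated libraries also lay above all untreated ones, so that a higher level than in untreated irises was not particular to constriction. Dilated against untreated libraries was not tested here.

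A *Serpina3n* UMI was found in 10.6 to 14.7% of constricted iris PE nuclei per library and in 0.525 to 1.17% of untreated ones. In dilator muscle the shares were 3.22 to 4.92% and 0.267 to 1.49%. In stroma 2, the more abundant stromal cell class, they were 0.150 to 1.44% and 0 to 0.228%. Median depth ranged from 2765 to 4716 UMIs per nucleus in iris PE, 3026 to 5299 in dilator muscle and 2154.5 to 3825 in stroma 2. With each nucleus thinned to 1000 UMIs, the constricted shares were 4.35 to 4.65% in iris PE, 0.703 to 1.55% in dilator muscle and 0 to 0.529% in stroma 2. Untreated shares were then at most 0.182%, 0.250% and 0.143%. The constricted shares of iris PE lay above those of stroma 2 in every library at both depths. Stroma 2 is not a fixed background, since its own *Serpina3n* level leaned higher in constricted libraries, by the values given below.

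Outside the 2 layers, *Serpina3n* was highest in the ciliary body, where the groups overlapped: 107, 35.6 and 57.4 CPM in untreated libraries and 128, 94.2 and 35.01 CPM in constricted libraries. In stroma 2 it had 7 UMIs in untreated and 17 in constricted nuclei, and the log2 fold change of 2.02 ± 0.89 did not pass (unadjusted p = 0.0414, adjusted p = 0.913). In that cell class 2 of 12788 genes were called (0.0156%). The log2 fold change of iris PE minus that of stroma 2 was 2.75 ± 0.96, and that of dilator muscle minus stroma 2 was 1.29 ± 1.08. Neither difference passed over all genes (adjusted p = 0.523 and 0.953, edgeR). The same tests called 22 of 15300 genes (0.144%) for iris PE against stroma 2 and 8 of 15749 (0.0508%) for dilator muscle against stroma 2. In the ciliary body epithelium, which is contiguous with iris PE, *Serpina3n* had 1 UMI in untreated and 8 in constricted nuclei, at 0, 1.89 and 0 CPM in untreated and 11.6, 0 and 18.3 CPM in constricted libraries, which overlapped. In stroma 1 it had 0 UMIs in each untreated library and 4 in the constricted ones, at 1.72, 2.58 and 3.85 CPM, so that the groups did not overlap. In sphincter 1 muscle, sphincter 2 muscle, leukocytes and endothelial cells, each taken apart, it had at most 4 UMIs in either condition. The neighbouring gene *Serpina3m*, the other family member with counts here, had 92 and 80 UMIs in untreated and constricted iris PE and 33 and 50 in dilator muscle. How the counting treated reads shared by the 2 paralogs is not given in the sources used here, and their effect was not tested.

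**Figure D1:**
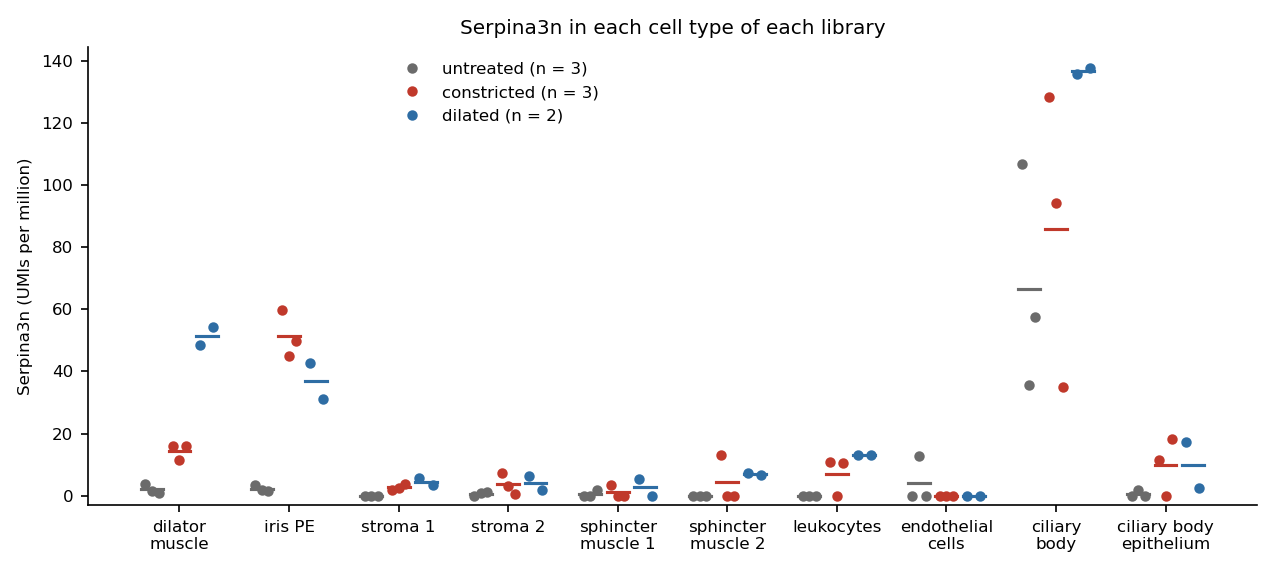
*Serpina3n* in CPM (y axis) for each deposited cell type (x axis), 1 point per library, with the mean of each condition (untreated, constricted, dilated) as a bar. In iris PE the 3 constricted libraries lie at 45.1 to 59.8 and in dilator muscle at 11.5 to 15.9, above all untreated libraries of the same layer, while constricted and untreated libraries overlap in the ciliary body.

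The absence of further calls was set against the precision of the fits. The 95% interval of the log2 fold change lay within 2-fold in either direction for 11185 of the 15395 genes tested in dilator muscle (72.7%) and 10420 of 14128 in iris PE (73.8%). For genes of 10 to 100 CPM these shares were 94.0% and 90.9%, and for genes under 10 CPM 29.1% and 25.5%. The median standard error was 0.23 in both layers. At an unadjusted p under 0.05, 423 genes were higher and 207 lower in constricted dilator muscle, and 324 higher and 293 lower in iris PE. DESeq2 called 13 genes in dilator muscle, all higher, and 5 in iris PE, 3 higher and 2 lower. All genes described from here on, other than in the comparison of the layers, did not pass in the test within a layer.

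**Figure D2:**
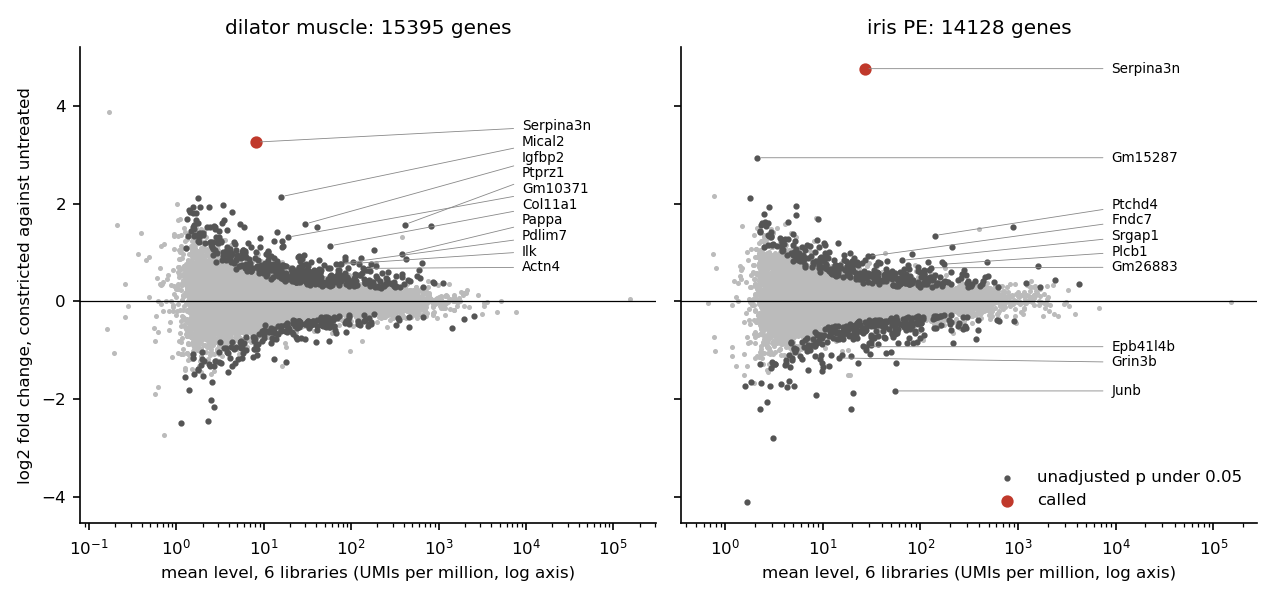
Log2 fold change of constricted against untreated (y axis) against the mean level over the 6 libraries in CPM (x axis, log scale), 1 point per gene, in dilator muscle (left) and iris PE (right). *Serpina3n* is the 1 called gene of each layer, at 3.26 and 4.76, and the 10 genes of smallest p are named.

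In dilator muscle, the 9 genes of smallest p after *Serpina3n* were all higher in constricted libraries, and for each of them the 3 constricted libraries lay above the 3 untreated ones. Groups did not overlap for 9.34% of all genes tested, in either direction. The 9 genes were chosen by p in this same comparison, so their separation follows in part from the choice and is no further evidence. *Igfbp2*, a secreted binding protein for insulin-like growth factors, stood at 18.1, 11.96 and 16.1 CPM in untreated and 40.7, 43.0 and 49.0 CPM in constricted libraries. Its log2 fold change was 1.58 ± 0.21 (adjusted p = 0.0515). *Pappa*, a secreted metalloprotease that cleaves such binding proteins, stood at 304, 236 and 245 CPM in untreated and 448, 561 and 491 CPM in constricted libraries, a log2 fold change of 0.97 ± 0.14 (adjusted p = 0.0515). Both sat at the edge of the threshold. Without nuclei with a shared barcode both were called (adjusted p = 0.0486), and *Igfbp2* also in the fit of the 6 libraries alone (adjusted p = 0.0341). Both were also called with DESeq2, with no filter on low counts and without constricted replicate 1. The same held with a term for the series of library numbers and with the replicate number as a block. Neither was called in any other alternative, thinned libraries and each fit without an untreated library among them. Without untreated replicate 2, on the other hand, the adjusted p was 0.678 for *Igfbp2* and 0.883 for *Pappa*.

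In iris PE, *Igfbp2* was at 36.8, 21.7 and 25.4 CPM in untreated and 41.7, 42.6 and 35.9 CPM in constricted libraries, which overlapped (0.60 ± 0.19, adjusted p = 0.964). *Pappa* was at 48.3 ± 11.4 against 63.9 ± 7.96 CPM there (0.34 ± 0.19, adjusted p = 0.999). Pairs of levels joined by "against" are the mean ± SD of the 3 untreated and of the 3 constricted libraries, and a value ± error after them is the log2 fold change with its SE. *Col11a1*, a fibrillar collagen chain, stood at 36.8 ± 8.04 against 78.6 ± 9.62 CPM in dilator muscle (1.14 ± 0.18, adjusted p = 0.119). In iris PE it stood at 84.0 ± 2.55 against 132 ± 20.9 CPM (0.65 ± 0.15, adjusted p = 0.78). In stroma 2 *Col11a1* stood at 25.5 ± 7.59 against 13.4 ± 7.01 CPM, with overlapping groups (-0.95 ± 0.40, adjusted p = 0.909). The test of the difference from stroma 2 called it for both layers, at 2.10 ± 0.31 for dilator muscle minus stroma 2 (adjusted p = 0.0182) and 1.58 ± 0.30 for iris PE minus stroma 2 (adjusted p = 0.0295). Over 14 alternatives these differences ranged from 1.90 to 2.43 and from 1.32 to 1.87. The first call was lost with thinned libraries and without constricted replicate 3, untreated replicate 2 or untreated replicate 3 (adjusted p = 0.189, 0.241 and 0.263). The second was lost with DESeq2 (adjusted p = 0.316), with thinned libraries and without any 1 library other than constricted replicate 2 (adjusted p = 0.0581 to 0.263).

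*Mical2*, an oxidase that disassembles actin filaments, stood at 9.97, 5.21 and 4.11 CPM in untreated and 16.3, 30.6 and 28.2 CPM in constricted dilator muscle (2.14 ± 0.34, adjusted p = 0.119). Constricted replicate 1 lay closest to the untreated libraries. *Mical2* and *Col11a1* were called in dilator muscle with DESeq2, no filter on low counts, the replicate block and without constricted replicate 1. No other alternative called them there. *Pdlim7*, an adaptor that binds actin-associated proteins, stood at 56.7 ± 1.75 against 96.0 ± 5.47 CPM (0.78 ± 0.13, adjusted p = 0.179). *Ilk*, the integrin-linked kinase, stood at 57.0 ± 10.3 against 93.5 ± 8.65 CPM (0.76 ± 0.15, adjusted p = 0.421). *Actn4*, an actin-crosslinking actinin, stood at 106 ± 6.28 against 167 ± 19.3 CPM (0.68 ± 0.13, adjusted p = 0.421). In iris PE the log2 fold changes of *Mical2*, *Pdlim7*, *Ilk* and *Actn4* were -0.04, 0.22, 0.04 and 0.18. The antisense transcript *Gm10371* stood at 11.7 ± 5.03 against 26.1 ± 3.796 CPM in dilator muscle (1.31 ± 0.26, adjusted p = 0.431). *Ptprz1* completes the list, and its levels are given below with the comparison of the layers. It was called in dilator muscle with no filter on low counts, the replicate block and without constricted replicate 1, and in no other alternative. *Pdlim7*, *Ilk*, *Actn4* and *Gm10371* were called in dilator muscle with DESeq2 and in no other alternative.

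In iris PE, the 9 genes of smallest p after *Serpina3n* included 6 that were higher and 3 that were lower in constricted libraries, again without overlap of the groups, as for 9.89% of all genes tested. Here too the separation follows in part from the choice by p. *Ptchd4*, a membrane protein with a patched domain, stood at 76.1, 67.4 and 92.2 CPM in untreated and 158, 249 and 195 CPM in constricted libraries (1.35 ± 0.19, adjusted p = 0.0564). It was called without nuclei marked as doublets (adjusted p = 0.0485) and with libraries thinned to the smallest (adjusted p = 0.00548). It was also called with DESeq2, with no filter on low counts, without constricted replicate 1 and with the series or replicate term. No other alternative called it. In dilator muscle it was at 11.8 ± 5.04 against 17.6 ± 2.52 CPM (0.71 ± 0.26, adjusted p = 1).

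*Plcb1*, a phospholipase C that acts downstream of Gq-coupled receptors, stood at 119, 124 and 141 CPM in untreated and 201, 249 and 202 CPM in constricted iris PE (0.76 ± 0.15, adjusted p = 0.496). In dilator muscle it stood at 640.4 ± 23.6 against 718 ± 129 CPM (0.19 ± 0.14, adjusted p = 1). *Srgap1*, a GTPase activator of Slit and Robo signalling, stood at 46.8 ± 6.15 against 82.7 ± 12.3 CPM in iris PE (0.84 ± 0.17, adjusted p = 0.496). *Fndc7*, a fibronectin-domain protein, stood at 19.6 ± 0.963 against 37.8 ± 7.82 CPM (0.92 ± 0.20, adjusted p = 0.745). The noncoding *Gm26883* stood at 97.1 ± 7.98 against 157 ± 7.82 CPM (0.69 ± 0.13, adjusted p = 0.496). The antisense *Gm15287* had 6 UMIs in untreated and 29 in constricted iris PE (adjusted p = 0.78). *Plcb1* and *Srgap1* were called in iris PE with no filter on low counts and with the replicate block, and *Plcb1* also with DESeq2. No other alternative called them there.

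Lower in constricted iris PE was *Junb*, a subunit of the AP-1 transcription factor, at 51.8, 125 and 74.8 CPM in untreated and 19.4, 27.9 and 27.3 CPM in constricted libraries. The log2 fold change was -1.83 ± 0.29 (adjusted p = 0.155), and without untreated replicate 1 it was -2.04 (adjusted p = 0.0236). *Junb* was also called in iris PE with DESeq2, with no filter on low counts and with the replicate number as a block. No other alternative called it there. In dilator muscle *Junb* stood at 23.2 ± 6.63 against 16.6 ± 8.97 CPM, with overlapping groups (-0.34 ± 0.56, adjusted p = 1). *Grin3b*, a subunit of NMDA receptors, was at 20.5 ± 1.34 against 9.09 ± 1.52 CPM in iris PE (-1.15 ± 0.22, adjusted p = 0.496). *Epb41l4b*, a FERM-domain protein, was at 36.2 ± 5.83 against 19.5 ± 4.00 CPM (-0.92 ± 0.20, adjusted p = 0.78).

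The change with constriction was then compared between the layers, in 1 fit of both with a term for each library, since each library supplied both. The test called 5 of 16283 genes (0.0307%), of which 3 had the larger log2 fold change in dilator muscle and 2 in iris PE. At an unadjusted p under 0.05 there were 925. *Ptprz1*, a receptor tyrosine phosphatase, stood at 282, 169 and 187 CPM in untreated and 353, 930.2 and 551 CPM in constricted dilator muscle. All 3 constricted libraries were higher, and they spread widely. In iris PE it stood at 53.5, 33.4 and 38.0 CPM in untreated and 37.1, 42.6 and 47.1 CPM in constricted libraries, which overlapped. The difference between the layers was 1.34 ± 0.18 on the log2 scale (dilator muscle minus iris PE, adjusted p = 0.00256). The call was lost without untreated replicate 2 (adjusted p = 0.072) or untreated replicate 3 (adjusted p = 0.111).

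*Flna*, the actin crosslinker filamin A, stood at 417, 274 and 239 CPM in untreated and 479, 593 and 572 CPM in constricted dilator muscle. The groups did not overlap, although untreated replicate 1 approached the constricted libraries. In iris PE it stood at 99.0 ± 27.2 against 110.2 ± 7.61 CPM, and the difference between layers was 0.65 ± 0.12 (adjusted p = 0.0381). *Synpo2*, an actin-binding protein of muscle, stood at 552, 461 and 405 CPM in untreated and 748, 906 and 514 CPM in constricted dilator muscle, where constricted replicate 3 lay below untreated replicate 1. Iris PE had 49.2 ± 5.19 against 44.0 ± 9.61 CPM, and the difference was 0.74 ± 0.13 (adjusted p = 0.0319).

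*Cngb3*, a subunit of the cyclic nucleotide-gated channel of cones, stood at 133, 105 and 84.6 CPM in untreated and 81.9, 69.6 and 53.1 CPM in constricted dilator muscle, and the 3 constricted libraries were the lowest. Iris PE had 25.7 ± 11.7 against 30.0 ± 6.52 CPM, and the difference was -1.08 ± 0.19 (adjusted p = 0.0319). The noncoding *9630028H03Rik* stood at 494 ± 36.8 against 447 ± 54.4 CPM in dilator muscle. In iris PE it stood at 24.2, 21.7 and 19.7 CPM in untreated and 32.2, 59.0 and 35.9 CPM in constricted libraries, where all 3 constricted ones were higher. The difference was -1.10 ± 0.19 (adjusted p = 0.0319). The gene *9630028H03Rik* is annotated at chr2:135325447-135583584 on the minus strand, and overlaps the end of *Plcb1* at chr2:134786067-135475258 on the plus strand. Whether the counting used strand is not given in the sources used here, and without strand reads from the overlap cannot be told apart. The difference of *Plcb1* itself was -0.59 ± 0.11 (adjusted p = 0.0437), just under the fold limit.

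The differences of *Flna*, *Synpo2*, *Cngb3* and *9630028H03Rik* were not called by DESeq2 (adjusted p = 0.489 for each), nor with thinned libraries. They were also lost without constricted replicate 3, untreated replicate 2 or untreated replicate 3, where the adjusted p ranged from 0.269 to 0.487. Without constricted replicate 2 it was 0.249 to 0.316 for *Flna*, *Synpo2* and *9630028H03Rik*, and without constricted replicate 1 it was 0.0621 for *Cngb3*.

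**Figure D3:**
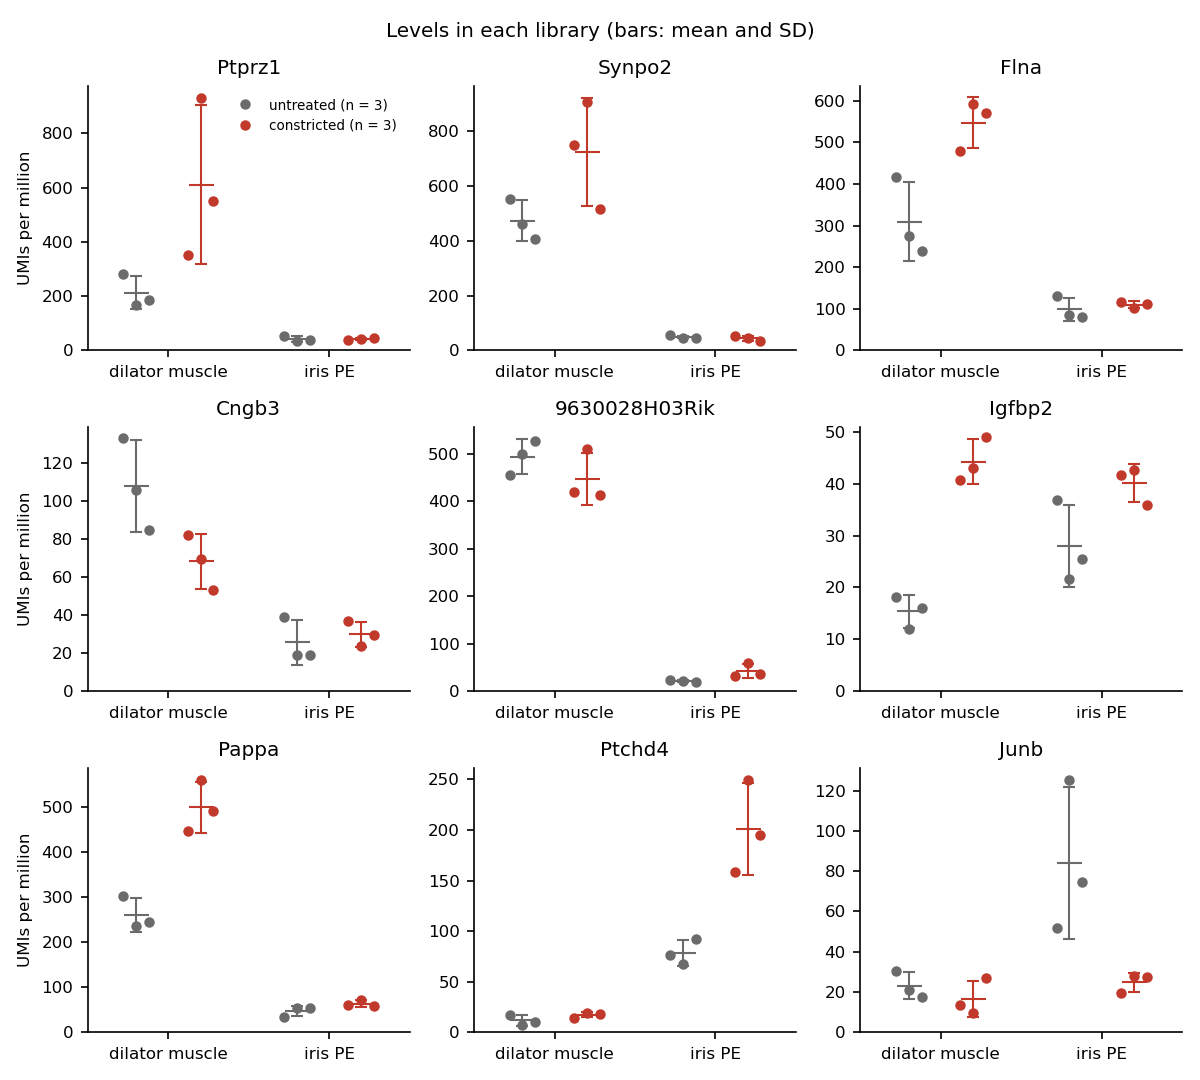
Levels in CPM (y axes) in dilator muscle and iris PE (x axes) of the 3 untreated and 3 constricted libraries, with mean and SD as bars, for the 5 genes whose change differed between layers and 4 others named in the text. *Ptprz1* reaches 353 to 930.2 in constricted dilator muscle and 37.1 to 47.1 in iris PE of the same libraries, and *Junb* is lower in constricted iris PE, at 19.4 to 27.9.

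Lists of genes by pathway were then counted. No member other than *Serpina3n* was called, so that members are counted as higher or lower at an unadjusted p under 0.05, with no correction for the number of genes. At that limit 2.75% of all genes tested were higher and 1.34% lower in constricted dilator muscle, and 2.29% and 2.07% in iris PE. The median log2 fold change of all genes tested was 0.01 in dilator muscle and 0.00 in iris PE.

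Of the receptors, *Chrm2*, the muscarinic receptor coupled to Gi, stood at 629.8 ± 48.4 against 495 ± 154 CPM in dilator muscle and 8.62 ± 1.04 against 8.09 ± 3.86 CPM in iris PE. *Chrm3*, coupled to Gq, stood at 22.3 ± 3.83 against 31.0 ± 10.9 CPM in dilator muscle and 35.5 ± 5.35 against 42.2 ± 18.4 CPM in iris PE. *Chrm1* and *Chrm4* were low in dilator muscle, at 6.41 ± 4.74 against 3.501 ± 1.12 CPM and 3.91 ± 0.532 against 3.11 ± 1.62 CPM. *Opn4*, the photopigment melanopsin, stood at 24.2 ± 2.63 against 29.2 ± 5.91 CPM in dilator muscle and 29.9 ± 2.72 against 32.8 ± 3.91 CPM in iris PE. *Adra1a*, the adrenergic receptor that drives dilator contraction, stood at 507, 456 and 473 CPM in untreated and 523, 358 and 238 CPM in constricted dilator muscle, with overlapping groups. Each of the receptors named here had an unadjusted p above 0.05 where tested. The 95% interval of the log2 fold change in dilator muscle was -0.74 to 0.08 for *Chrm2* and -0.81 to 0.11 for *Adra1a*.

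Of Gq and calcium signalling, 2 of 31 tested genes were higher and 0 lower in iris PE, with a list median of 0.04. They were *Plcb1* and *Prkca*, a protein kinase C, at 105 ± 4.87 against 148 ± 9.44 CPM (0.50 ± 0.13). In dilator muscle 3 of 30 were higher and 0 lower, with a list median of 0.09. They were *Atp2b4*, a plasma membrane calcium pump (0.42 ± 0.13), *Ryr3*, a calcium release channel (0.35 ± 0.15), and *Nfatc2*, a calcium-regulated transcription factor (0.62 ± 0.27). Of Gi and cAMP signalling, 3 of 36 genes were higher in iris PE, the cyclase *Adcy8* (0.79 ± 0.22) and the phosphodiesterases *Pde1a* (0.55 ± 0.17) and *Pde10a* (0.79 ± 0.30). In dilator muscle 2 of 37 were higher and 1 lower, and the list medians were 0.03 in iris PE and -0.02 in dilator muscle. *Pde10a* stood at 20.3 ± 6.25 against 20.5 ± 7.51 CPM in dilator muscle and at 1305 and 1338 CPM in the 2 dilated libraries. In stroma 2 it stood at 33.8, 40.3 and 33.4 CPM in untreated and 176, 645 and 167 CPM in constricted libraries (3.18 ± 0.47, adjusted p = 0.0546). Its change was below that of stroma 2 by the test of the difference, at -2.66 ± 0.41 for dilator muscle (adjusted p = 0.0182) and -2.04 ± 0.37 for iris PE (adjusted p = 0.0293). Without constricted replicate 3, untreated replicate 2 or untreated replicate 3 neither difference was called (adjusted p = 0.124 to 0.263), and without untreated replicate 1 or constricted replicate 2 that of iris PE was not (adjusted p = 0.086 and 0.141). *Plcb4*, *Prkcb* and *Cacna1d*, a phospholipase C, a protein kinase C and a calcium channel among the most abundant of the Gq list, had log2 fold changes of -0.03, -0.09 and -0.16 in dilator muscle and 0.04, -0.04 and -0.11 in iris PE. *Pde4d*, *Gnao1* and *Sik3*, among the most abundant of the Gi and cAMP list, had log2 fold changes of 0.14, -0.05 and -0.11 in dilator muscle and 0.06, 0.16 and -0.20 in iris PE.

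Immediate early genes, which cells transcribe within minutes of a stimulus, leaned lower in constricted iris PE. Of 23 tested, 8 were lower and 0 higher, beside 2.07% and 2.29% of all genes, and the list median was -0.78. Those were *Junb*, *Nr4a1*, *Btg1*, *Fos*, *Btg2*, *Ier3*, *Ier2* and *Ier5*. All 8 were measured in the same few libraries and may vary together, so that they are not 8 separate observations. The list was also chosen with earlier results of these data known. *Fos*, the partner of Jun proteins, stood at 23.4, 12.1 and 6.75 CPM in untreated and 2.30, 2.46 and 4.49 CPM in constricted iris PE (-1.90 ± 0.51). *Nr4a1*, an orphan nuclear receptor, stood at 36.1 ± 9.60 against 18.6 ± 2.09 CPM (-0.98 ± 0.23), and *Btg2*, an antiproliferative gene, at 14.3 ± 4.37 against 5.33 ± 1.09 CPM (-1.42 ± 0.40). *Egr1*, a zinc-finger factor, stood at 52.7, 24.1 and 5.33 CPM in untreated and 2.96, 25.4 and 3.37 CPM in constricted iris PE, with overlapping groups (-1.50 ± 0.80). In dilator muscle 1 of 27 was higher, *Arid5b*, and 1 lower, *Btg1*, with a list median of -0.02. *Fos* stood at 4.10 ± 4.57 against 2.06 ± 1.42 CPM and *Btg2* at 15.99 ± 3.63 against 13.6 ± 5.41 CPM there. *Jund* and *Zfp36l1*, which were among the most abundant of the list, had log2 fold changes of 0.42 and -0.24 in dilator muscle and -0.02 and -0.34 in iris PE. The difference between the layers for *Junb* was 1.64 ± 0.55 on the log2 scale and did not pass (adjusted p = 0.554). It was called in the fit of the 6 constricted and untreated libraries alone (1.67 ± 0.30, adjusted p = 0.0186) and with no filter on low counts (1.66 ± 0.20, adjusted p = 3.99e-13), and was not in the other 12 of 14 alternatives. The p-value without the filter is that of a normal distribution. It takes the spread between so few libraries as known and is too small to be read at face value. In stroma 2 *Junb* also stood lower in all 3 constricted libraries, at 43.9 ± 8.94 against 16.6 ± 7.27 CPM (-1.42 ± 0.40, adjusted p = 0.588), and it was called there with no filter on low counts and with the replicate number as a block. The difference of iris PE minus stroma 2 was -0.44 ± 0.39 (adjusted p = 0.920). In the 2 dilated libraries *Junb* stood at 248 and 290.4 CPM in iris PE. The summed level of 6 nuclear and RNA quality transcripts overlapped between the conditions, at 132239 to 166808 CPM in untreated and 130373 to 184777 CPM in constricted iris PE. The summed level of 7 stroma 1 markers did not overlap there, at 75.2 to 77.8 CPM in untreated and 50.9 to 63.1 CPM in constricted iris PE nuclei, and its part in the result for the immediate early genes was not tested.

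Genes that feed back on ERK signalling had a list median of 0.29 in dilator muscle and -0.12 in iris PE. Of 15 tested in dilator muscle, *Tmem158* (7.45 ± 1.78 against 14.7 ± 4.17 CPM, 0.95 ± 0.25) and *Dusp8*, a MAP kinase phosphatase (1.30 ± 0.39), were higher, and *Etv1* and *Phlda1* lower. Of 12 tested in iris PE, *Phlda1* was lower. *Spred1*, *Spred2* and *Dusp10*, negative regulators of the ERK and MAP kinase cascades, had log2 fold changes of 0.07, 0.34 and 0.29 in dilator muscle and 0.13, 0.15 and 0.13 in iris PE. A further list was taken from genes shown for dilation in the study, chosen on libraries of this series, so that it is not independent evidence. Of its 11 members, 2 were higher in dilator muscle, *Tmem158* and *Pde3b*, and in iris PE *Pde10a* was higher and *Junb* and *Btg2* lower. *Slc26a4*, an anion exchanger of that list, stood at 26.2 ± 10.0 against 28.8 ± 6.33 CPM in dilator muscle and at 420.1 and 339 CPM in dilated libraries.

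**Figure D4:**
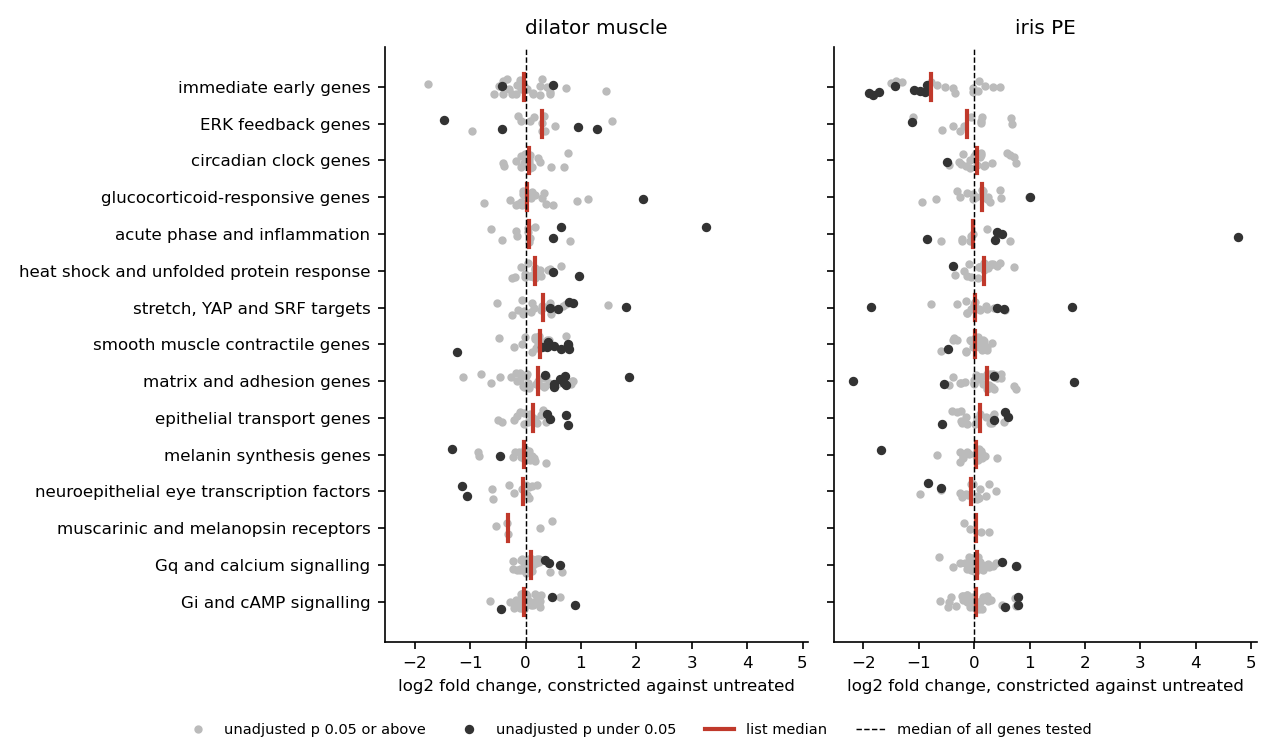
Log2 fold change of constricted against untreated (x axes) of each tested member of 15 gene lists (y axis), in dilator muscle (left) and iris PE (right), with dark points at an unadjusted p under 0.05, a red bar at the list median and a dashed line at the median of all genes tested. The largest shift of a median in iris PE is that of the immediate early genes, at -0.78, and the point at the far right is *Serpina3n*.

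Smooth muscle contractile genes leaned higher in dilator muscle, with 8 of 27 higher and 1 lower, beside 2.75% and 1.34% of all genes. The list median was 0.26. Here and in the stretch and matrix lists, members were measured in the same few libraries and may vary together. They are not separate observations. In dilator nuclei the summed level of the 7 iris PE markers was lower in constricted libraries, without overlap. It stood at 4646 to 4915 CPM in untreated and 4024 to 4597 CPM in constricted libraries. Of these 7, some of which dilator muscle itself expresses, only *Trpm1* was lower at the unadjusted limit and 0 were higher. The summed level of the 7 stroma 1 markers was also lower without overlap, at 30.8 to 41.1 and 17.3 to 27.1 CPM. That of 7 sphincter markers overlapped, at 335 to 442 and 367 to 511 CPM. The part of these levels in the results for contractile genes and for the stretch and matrix genes that follow was not tested. Higher were *Pdlim7*, *Synpo2*, the nonmuscle myosin *Myh10* (0.77 ± 0.22), the kinase *Rock2* (0.39 ± 0.15), the actin-binding *Tagln* (0.79 ± 0.32) and *Cald1* (0.30 ± 0.13), and the tropomyosins *Tpm1* (0.40 ± 0.17) and *Tpm2* (0.51 ± 0.22). The intermediate filament gene *Des* was lower (-1.23 ± 0.50). *Myh11*, smooth muscle myosin, stood at 1931 ± 219 against 2253 ± 86.3 CPM in dilator muscle and *Acta2*, smooth muscle actin, at 613 ± 296 against 727 ± 189.9 CPM. *Mylk* and *Tead1*, myosin light chain kinase and the DNA-binding partner of YAP, had log2 fold changes of -0.21 and 0.14 in dilator muscle and -0.30 and 0.01 in iris PE. In iris PE 0 of 24 were higher and 1 was lower, *Myh11* (78.0 ± 1.21 against 54.3 ± 18.0 CPM, -0.48 ± 0.19), and the list median was 0.01. Targets of stretch, YAP and SRF share members with that list. In dilator muscle 5 of 24 were higher and 0 lower, *Flna*, *Tagln*, the receptor *Tnfrsf12a* (1.82 ± 0.45), the focal adhesion protein *Vcl* (0.59 ± 0.16) and *Ajuba* (0.45 ± 0.20), with a list median of 0.32. In iris PE 3 of 20 were higher and 1 lower, with a median of 0.02. *Tnfrsf12a* was higher there too (1.77 ± 0.48), while *Cyr61*, a secreted YAP target, was lower, at 33.5 ± 23.0 against 7.22 ± 4.76 CPM (-1.87 ± 0.47).

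Matrix and adhesion genes had list medians of 0.23 in both layers. In dilator muscle 8 of 37 were higher and 0 lower, including the collagens *Col8a1* (0.72 ± 0.21), *Col12a1* (0.62 ± 0.19) and *Col4a1* (0.73 ± 0.23) and the protease inhibitor *Timp3*, at 273 ± 12.1 against 386 ± 83.9 CPM (0.52 ± 0.17). In iris PE 2 of 35 were higher, the protease inhibitor *Timp1* (1.80 ± 0.65) and *Lama2*, a laminin chain (0.36 ± 0.14). Lower were 2, among them *Adamts1*, a metalloprotease (-0.54 ± 0.24). *Timp3* and *Adamts5*, inhibitor and protease of the matrix, had log2 fold changes of 0.52 and -0.05 in dilator muscle and 0.37 and 0.11 in iris PE.

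The acute-phase and inflammation list held *Serpina3n*. Of 13 tested members, 3 were higher and 0 lower in dilator muscle, the others being the complement gene *C4b* (29.7 ± 2.87 against 45.4 ± 5.29 CPM, 0.64 ± 0.17) and the cytokine receptor subunit *Il6st* (0.49 ± 0.18). In iris PE 4 of 13 were higher, with *C4b* (94.0 ± 17.8 against 121 ± 21.2 CPM, 0.40 ± 0.17), *Il6st* (0.38 ± 0.17) and *Cp*, ceruloplasmin (0.50 ± 0.21), and *Stat3*, a transcription factor of the acute-phase response, was lower (281 ± 169.5 against 149.7 ± 38.8 CPM, -0.84 ± 0.30). The list medians were 0.05 and -0.02. The summed level of 8 leukocyte markers overlapped between the conditions, at 11.96 to 18.7 CPM in untreated and 11.5 to 13.2 CPM in constricted dilator nuclei and at 14.7 to 26.7 and 13.9 to 17.1 CPM in iris PE nuclei. Of glucocorticoid-responsive genes, 1 of 20 was higher in dilator muscle, *Tat* (2.12 ± 0.53), and 1 of 18 in iris PE, *Sult1a1* (1.01 ± 0.43), with medians of 0.03 and 0.15. *Nr3c1*, *Sgk1*, *Klf9* and *Mt1*, the receptor itself and 3 abundant members, had log2 fold changes of 0.09, 0.33, -0.03 and -0.07 in dilator muscle and -0.02, 0.28, -0.31 and -0.02 in iris PE. Of heat shock and unfolded protein genes, *Pdia4* and *Sdf2l1* were higher in dilator muscle and *Bag3* lower in iris PE, of 20 and 19 tested, with medians of 0.17 in both layers. *Hspa5*, *Hsp90b1* and *Hsp90ab1*, the most abundant chaperones, had log2 fold changes of 0.45, 0.27 and 0.17 in dilator muscle and 0.47, 0.34 and 0.29 in iris PE.

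Of 21 circadian clock genes, 0 were under the limit in dilator muscle and 1 in iris PE, *Bhlhe40* (-0.48 ± 0.19), with medians of 0.06 in both layers. The spread among libraries of a condition was wide for some. *Npas2*, a partner of the clock protein BMAL1, stood at 309, 191 and 179.9 CPM in untreated and 321, 121 and 54.0 CPM in constricted dilator muscle. *Clock*, *Rora* and *Tef*, other abundant members, had log2 fold changes of 0.06, 0.01 and 0.02 in dilator muscle and 0.04, -0.08 and 0.32 in iris PE.

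Of genes for epithelial transport, 4 of 21 were higher and 0 lower in dilator muscle, with a median of 0.14, and 3 of 21 higher and 1 lower in iris PE, with a median of 0.11. *Aqp1*, a water channel, was higher in iris PE (86.6 ± 10.7 against 128 ± 20.4 CPM, 0.56 ± 0.16) and in dilator muscle (26.7 ± 2.37 against 35.5 ± 8.39 CPM, 0.44 ± 0.18). *Slc4a4*, *Slc4a5* and *Gja1*, 2 bicarbonate cotransporters and a gap junction protein, had log2 fold changes of -0.03, -0.21 and 0.08 in dilator muscle and 0.21, -0.31 and 0.11 in iris PE. Of 18 melanin synthesis genes, *Sox10* and *Gpr143* were lower in dilator muscle and *Sox10* in iris PE, and the medians were -0.03 and 0.04. *Sox10* had log2 fold changes of -1.33 ± 0.41 and -1.68 ± 0.50. *Dct*, *Tyr*, *Oca2* and *Gpnmb*, the most abundant of the list, had log2 fold changes of 0.02, -0.01, 0.37 and 0.16 in dilator muscle and -0.13, 0.09, 0.41 and 0.20 in iris PE. *Sox10* is also in the list of 7 stroma 1 markers, whose summed level did not overlap between the conditions. That level was lower in constricted nuclei of both layers, by the values given above, and its part in the result for *Sox10* was not tested. Of eye transcription factors, *Tbx20* (7.79 ± 0.806 against 3.66 ± 1.20 CPM, -1.05 ± 0.34) and *Six6* were lower among 14 tested in dilator muscle, and *Zic2* and *Msx1* among 17 in iris PE, with medians of -0.05 and -0.07. *Pax6*, *Meis2* and *Zic1*, among the most abundant of that list, had log2 fold changes of 0.00, 0.05 and -0.58 in dilator muscle and -0.07, 0.21 and -0.10 in iris PE. The part of the lower iris PE marker level of constricted dilator nuclei in the result for *Tbx20* was not tested.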

How the data were processed

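Nuclei of pooled irises were profiled with the 10x Genomics 3' v3 kit. The authors aligned reads with Cell Ranger 3.1.0 to mm10 with introns included, filtered nuclei and assigned cell types with Seurat. The deposited values are counts of UMIs per gene and nucleus, with the authors' cell type of each nucleus. The deposited percent of mitochondrial UMIs per nucleus was computed by the authors and used only to describe nuclei. Those names rest on clusters of the same nuclei, and no name was changed here.

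For each layer, the UMIs of its nuclei were added up within a library, and levels are given as UMIs per 1000000 UMIs of that sum (CPM). Tests used edgeR 4.0.16 (quasi-likelihood, TMM, filterByExpr, all 8 libraries in the fit, R 4.3.3), with Benjamini-Hochberg adjustment over all genes. A call needed an adjusted p under 0.05 and an absolute log2 fold change above 0.6. SEs were derived from the F statistic. The difference between layers, and between a layer and stroma 2, was tested in 1 fit with a term per library. DESeq2 1.42.0 was an alternative, beside other libraries in the fit, size factors, filters, nuclei and depth. Doublets were called with scanpy 1.11.5 (Scrublet), and left in for the main results. Scripts were tested on simulated data. Libraries were prepared as independent biological replicates by the study's methods, in several batches, and which library fell in which batch is not given in the sources used here.

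Genes named were those called in a layer or in the difference, the 10 of smallest p in each layer, abundant members of each list and the receptors and dilation genes of the study. Members of lists named for an unadjusted p under 0.05 were chosen after their values were seen. The comparison and all gene lists were chosen with earlier results of these data known. Promoter and motif counts came from RefSeq GRCm38.p6 (32851 promoters), positions from GENCODE on mm10. The motif search, the fits without shared barcodes, the alternatives for stroma 2 and the naming of *Col11a1* and *Pde10a* in the tests against stroma 2 were added after seeing the data. Results for some single genes are not reported here.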

Additional observations from a re-analysis of the deposited data

Results flagged for a closer look

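The change with constriction differed between the 2 layers for 5 genes by the test of the difference itself. That was edgeR in 1 fit of all 8 libraries with a term per library, comparing 3 constricted with 3 untreated libraries. As dilator muscle minus iris PE on the log2 scale, the difference was 1.34 for *Ptprz1*, 0.74 for *Synpo2* and 0.65 for *Flna*. It was -1.08 for *Cngb3* and -1.10 for *9630028H03Rik*. None of the 5 passed in either layer alone, where adjusted p-values were 0.355 or higher. Between a layer and stroma 2, the change also differed for *Col11a1*, by 2.10 for dilator muscle minus stroma 2 and 1.58 for iris PE minus stroma 2, and for *Pde10a*, by -2.66 and -2.04. No test for a single library apart from its group was made, since groups held 3 libraries.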

How the results depend on the processing

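Gene counts depended on the setting, from 1 called gene in each layer and in their sum, 5 in the difference between layers and 2 in stroma 2. In dilator muscle the count was 2 with 6 libraries, 3 with the library series as a term, 13 with DESeq2, 9 with no filter on low counts, 3 without shared barcodes and 0 with thinned libraries, where 339 genes had an unadjusted p under 0.05. Leaving out 1 library gave 0 to 7, with 0 without constricted replicate 2, untreated replicate 2 or untreated replicate 3 (457, 335 and 305 genes at an unadjusted p under 0.05) and 7 without constricted replicate 1. In iris PE it was 3 with the series term, 5 with DESeq2, 12 with no filter (6 higher, 6 lower), 2 without doublets and 2 with thinned libraries, and 1 to 2 with 1 library left out, with 2 without untreated replicate 1 or constricted replicate 1. For both layers summed it was 20 with DESeq2, 2 with no filter and 2 without shared barcodes, and 1 to 3 with 1 library left out, the 3 without constricted replicate 1. For the difference it was 14 with 6 libraries, 1 with DESeq2, 58 with no filter and 2 with thinned libraries, and 0 to 25 with 1 library left out, with 25 without constricted replicate 1, 12 without untreated replicate 1, 2 without constricted replicate 2, 1 without constricted replicate 3 and 0 without untreated replicate 2 or 3 (674 and 770 genes at an unadjusted p under 0.05). In stroma 2 it was 5 with 6 libraries, 22 with the series term, 23 with DESeq2, 102 with no filter and 1 with thinned libraries, and 0 to 5 with 1 library left out, with 0 without untreated replicate 2 or 3 (400 and 368 genes at an unadjusted p under 0.05), 1 without constricted replicate 2, 4 without constricted replicate 3 and 5 without constricted replicate 1. For dilator muscle against stroma 2 the count was 8 and became 16 with 6 libraries, 129 with no filter (68 higher, 61 lower) and 2 with thinned libraries. It was 0 to 18 with 1 library left out, with 18 without untreated replicate 1, 3 without constricted replicate 2 and 0 without constricted replicate 3, untreated replicate 2 or untreated replicate 3 (747, 661 and 619 genes at an unadjusted p under 0.05). For iris PE against stroma 2 it was 22 and became 38 with 6 libraries, 6 with DESeq2, 115 with no filter and 1 with thinned libraries. It was 0 to 37 with 1 library left out, with 37 without constricted replicate 1, 9 and 8 without constricted replicates 2 and 3, 1 without untreated replicate 3 and 0 without untreated replicate 2 (698 genes at an unadjusted p under 0.05). The causes were not tested. In the tests of a difference with no filter, the p-values of *Junb*, *Col11a1* and *Pde10a* were those of a normal distribution. Such p-values take the spread between libraries as known, so that the counts with no filter are not a fair guide there. With 2 libraries left in a condition, the spread rests more on the other groups.

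With the replicate number as a block, 6 genes were called in dilator muscle, 20 in iris PE (7 higher, 13 lower), 16 in both layers summed and 37 in stroma 2. The numbers were not taken to pair the samples in the main fits. Deviations of same-numbered libraries correlated at 0.24, 0.0036 and 0.29 in dilator muscle and 0.18, -0.0038 and 0.21 in iris PE. Those of untreated replicate 2 and constricted replicate 3, which differ in number, correlated too, at 0.21 and 0.19. Libraries were also grouped by series of library number, with constricted replicate 2 alone in its series. Between the conditions, deviations correlated at 0.21 to 0.29 within a series in dilator muscle and 0.18 to 0.21 in iris PE. Across series they were -0.31 to -0.16 and -0.24 to -0.11, leaving out constricted replicate 2. The main fits had no series term, so that deviations shared within a series stayed in their spread. With it, 1320 genes in dilator muscle and 1171 in iris PE had an unadjusted p under 0.05, beside 630 and 617 without it. No block was fitted for the difference, which has a term per library.

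Of 4810 values of single genes under alternatives, 105 moved across the threshold (49 lost, 56 gained) and 235 changed sign. The sign changes were in 89 of 306 results, none called, with an unadjusted p of 0.0742 or more in the main result. For genes under 10 CPM, 29.1% and 25.5% had an interval within 2-fold.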
